A study of Mus musculus with 4 samples.

Results

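The interval described here is the stretch of chromosome 1 from 106000000 to 150000000 (mm10), 44 Mb that span Ptprc, the gene of the leucocyte surface phosphatase CD45. Its members are the single-nucleotide variants (SNVs) and short insertions or deletions (indels) that SpeedSeq and VarScan2 both called at the same position with the same bases, where the depth reached 10 reads, the variant was in 3 reads or more and made up 0.10 or more of them, and the SpeedSeq quality reached 20. These calls are named confident below, and the allele fraction is the share of the reads at a site that carry the variant. The interval held 627 distinct confident variants over the 4 samples, of 59133 in the whole genome (1.06%). The members were chosen by their read counts, allele fractions and call quality, and the bounds of the interval were drawn with these values known, so the counts and fractions inside it are a description and were not tested.

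The DNA came from marrow leukaemia cells that carried c-Kit, taken from moribund E2-KO mice on a C57BL/6 background, which combine an activated Nras allele (Nras-G12D) with a knockout of Ezh2. All 4 samples belong to this 1 group, numbered here as replicates 1 to 4 by accession. No control animal or matched normal tissue was analysed here, and the labels give no age, Cre driver, pooling, CD45 allele or transplantation. Exons were enriched with an Agilent mouse kit and sequenced from both ends, 100 bases each. Replicate 3 stood apart in the interval and also in the genome at large: outside the interval, its SNVs with a fraction from 0.65 up and at least 30 reads had a median of 0.80, against 1.0 in replicates 1, 2 and 4, and its SNVs under 0.65 had a median of 0.378, against 0.446 in replicate 1, 0.457 in replicate 2 and 0.447 in replicate 4.

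Ptprc encodes CD45, a receptor-type tyrosine phosphatase on nearly all nucleated blood cells that sets the activity of Src-family kinases below antigen and cytokine receptors. Inbred mice carry several alleles of the gene that antibodies tell apart. C57BL/6 lines made congenic for the Ptprc allele of the SJL strain carry a piece of SJL chromosome 1 around the gene, and such lines are widely used as hosts or as competitor cells in marrow transplantation. In DNA from mixed cells, the allele fraction of a variant depends both on the share of cells that carry it and on whether they carry it on 1 copy or on both, and the fraction alone does not separate these. No catalogue of strain variants was used here, so whether the alleles below are those of any strain was not tested.

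Nearly all variants of the interval were those of replicate 3. Replicate 3 carried 565 confident SNVs, whereas replicates 1, 2 and 4 carried 12, 11 and 10. The mean over the 4 samples was 149.5 ± 277 (SD, n = 4), and it was 11 ± 1 (SD, n = 3) without replicate 3. The SNVs of the interval were 1.83% of all confident SNVs of replicate 3, and 0.0350%, 0.0343% and 0.0464% of those of replicates 1, 2 and 4. Of the 571 distinct SNV sites, 553 (96.8%) were confident in replicate 3 only, 7 in all 4 samples, 6 in 2 samples and 5 in replicate 1 or 2 only. In replicate 3, 551 SNVs were private, which means that neither caller listed their position at any quality in the other 3 samples; replicates 1 and 2 had 1 private SNV each and replicate 4 had none. The files list variants alone, so the depth at these positions in the other samples is unknown. The lists of all samples also stop near a fraction of 0.20. The same variant at a lower fraction in another sample could go unlisted, so private does not mean absent there.

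The allele fractions of replicate 3 lay low. Its SNVs in the interval had a median fraction of 0.245 (middle range 0.219 to 0.296, lowest 0.20, highest 1.0), against 0.432 for its SNVs in the rest of the genome. In replicates 1, 2 and 4 the 12, 11 and 10 SNVs of the interval had medians of 0.40, 0.449 and 0.352, against 0.496, 0.50 and 0.744 in the rest of the genome. In replicate 3, 75.2% of the SNVs of the interval were under 0.30, against 11.2% in the rest of its genome, and 3 of the 565 were at 0.65 or more. VarScan2 gave the same picture for replicate 3, with a median of 0.25 and a median absolute difference of 0.00523 between callers at the same site. Its 551 private SNVs had a median of 0.244, and its 14 SNVs that were also listed in another sample had a median of 0.463, so the low fractions were those of the private SNVs.

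**Figure D1:**
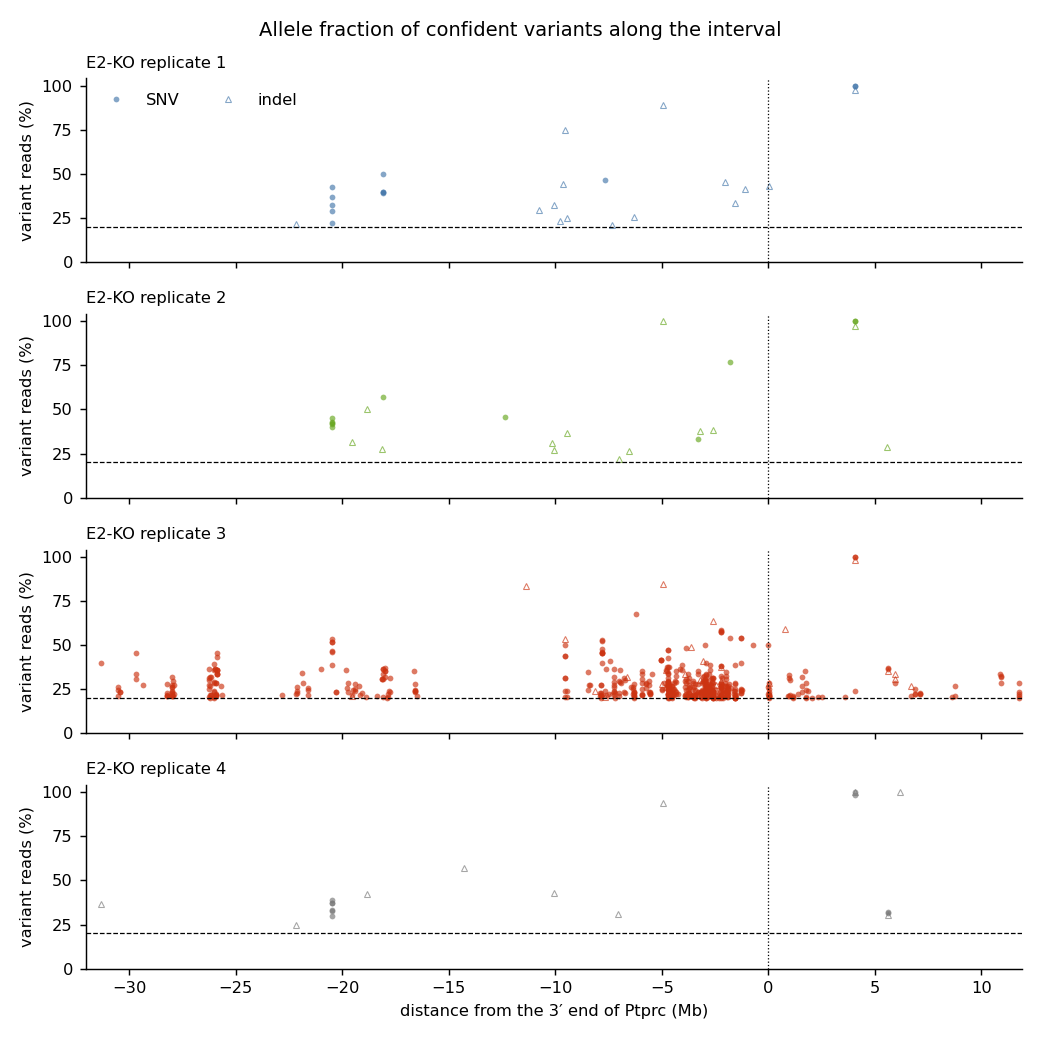
Percent of reads with the variant (vertical axis) against the distance from the 3′ end of Ptprc, the lowest coordinate of this minus-strand gene, in Mb (horizontal axis; the dotted line marks that end) for each confident SNV (filled circle) and indel (open triangle) in the 4 E2-KO samples, 1 panel each. The dashed line marks 20%, under which the files list no SNV at useful depth; replicate 3 holds 565 SNVs, 425 of them under 30%, on both sides of Ptprc, and the other panels hold 10 to 12 SNVs each.

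The 3 sequences printed here, from RefSeq (GRCm38.p6, the same build as mm10), show what such a variant looks like in place, because they are the gene-start windows and the microRNA hairpin of the interval that hold a confident SNV. RefSeq gave 376 windows, each from 250 bases before to 50 after a gene start, for 295 genes of the interval. In replicate 3, 2 of the windows held a confident SNV, and no window did in the other samples. Of 9 hairpins, 1 held a confident SNV. The capital marks the base that replicate 3 read in a second form, and in all 3 of 3 cases the base in RefSeq was the reference base of the call. Of the 2 windows of Ptprc, neither held one. The sequences run 5′ to 3′ on the strand of the gene.
Golt1a window, plus strand, chr1:133309573-133309872: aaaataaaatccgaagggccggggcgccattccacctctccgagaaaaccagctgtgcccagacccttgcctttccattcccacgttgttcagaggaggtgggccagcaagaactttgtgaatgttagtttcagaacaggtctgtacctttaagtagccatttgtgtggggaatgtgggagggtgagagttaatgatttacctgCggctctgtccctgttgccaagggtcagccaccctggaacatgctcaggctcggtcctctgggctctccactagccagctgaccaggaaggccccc
Ren1 window, plus strand, chr1:133350424-133350723: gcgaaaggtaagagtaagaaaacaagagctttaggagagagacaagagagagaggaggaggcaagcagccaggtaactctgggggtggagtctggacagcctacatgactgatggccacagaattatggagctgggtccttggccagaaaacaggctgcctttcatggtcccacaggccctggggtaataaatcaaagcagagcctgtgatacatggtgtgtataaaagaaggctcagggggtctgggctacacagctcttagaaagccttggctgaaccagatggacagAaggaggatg
Mir6903 hairpin, minus strand, chr1:133726558-133726645: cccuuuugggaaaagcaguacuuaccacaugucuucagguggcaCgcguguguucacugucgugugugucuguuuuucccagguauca

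The SNV C133309777T, written as the reference base, the position on the plus strand of chromosome 1 and the variant base, lay 46 bases before the start of Golt1a, a gene of Golgi vesicle transport. It was read in 9 of 24 reads of replicate 3 (37.5%, exact 95% interval 18.8 to 59.4). The SNV A133350714G lay 40 bases after the first base of Ren1, which encodes renin, the protease that begins the angiotensin cascade, and was read in 24 of 82 reads (29.3%, 19.7 to 40.4). In Mir6903, G133726601A fell at base 45 of the 88-base hairpin, outside the listed mature arms, and was read in 6 of 27 reads (22.2%, 8.62 to 42.3). All 3 SNVs were private to replicate 3. These are Clopper-Pearson intervals, here and below; they leave out every error but that of counting, and PCR copies of a molecule may be among the reads.

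Ptprc itself, from 138062859 to 138175756 on the minus strand, carried 13 confident SNVs and 1 one-base insertion in replicate 3. No confident SNV of Ptprc was found in replicate 1, 2 or 4 (mean 3.25 ± 6.5, SD, n = 4; 0 without replicate 3). None of the 14 positions was listed by either caller at any quality in the other samples. The other samples had few listed calls over the gene: these were indels and, in replicate 2, 2 SNVs with at most 3 reads. Variants under the 20% at which the lists stop could be present there and go unlisted. A 2-base deletion at 138080466 was confident in replicate 1 alone (12 of 28 reads, 42.9%, 24.5 to 62.8). Replicate 4 had no call in the gene.

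The SNVs of Ptprc spanned 50627 bases, from 138064955 to 138115582, in the part of the gene that lies away from its transcription start. The most deeply read was T138080106G, with 47 of 225 reads (20.9%, 15.8 to 26.8). C138083684T had 36 of 167 reads (21.6%, 15.6 to 28.6), and A138079965T had 38 of 151 reads (25.2%, 18.5 to 32.9). At the 8 SNVs with a depth of at least 50, the fractions were 20.7% to 25.2%. The lists hold no SNV under 20% at such depth, so sites with lower fractions are missing from this range. The highest fraction, 50% at A138071004G, rested on 7 of 14 reads, all on 1 strand (23.0 to 77.0). Over the 13 SNVs the median fraction was 22.1%, 9 were transitions, 8 had variant reads on both strands, and the mean mapping quality of the variant reads was 60 at each. The interval of 12 of the 13 reached down to 20% or below. The insertion at 138115656 was read in 8 of 28 reads (28.6%, 13.2 to 48.7). Exon bounds were not used here, so whether a change lies in an exon or alters CD45 was not determined.

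**Figure D2:**
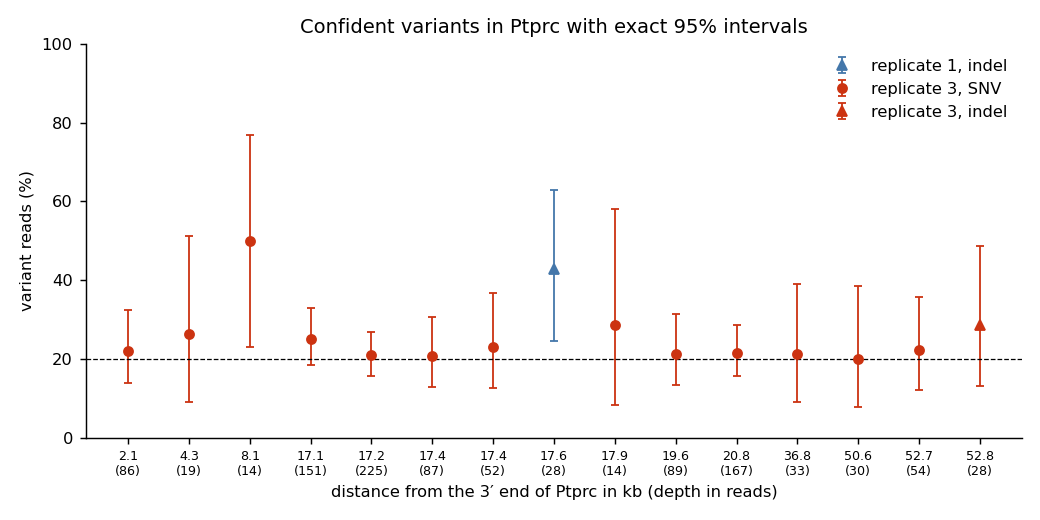
Percent of reads with the variant and exact 95% interval (vertical axis) for each confident variant in Ptprc, ordered by distance from the 3′ end of the gene in kb, with the depth in reads in parentheses (horizontal axis). The 8 SNVs of replicate 3 with a depth of at least 50 sit between 20.7% and 25.2%, close to the dashed line at 20%, and the point at 50% has 14 reads; the deletion of replicate 1 is the blue triangle.

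The lists themselves set a floor under these fractions. SpeedSeq listed no SNV with a fraction under 0.20 once 30 reads covered it, and VarScan2 listed no call under 20%. The private SNVs of replicate 3 had a median of 0.304 at a depth of 10 to 29 reads (166 SNVs), 0.241 at 30 to 59 reads (197 SNVs), 0.228 at 60 to 99 reads (111 SNVs) and 0.216 at 100 reads or more (77 SNVs). The median thus fell with depth toward the floor. A binomial fraction common to all sites and cut off at the floor was fitted by maximum likelihood to the 385 private SNVs with a depth of at least 30, and gave 0.204 (profile-likelihood 95% interval 0.197 to 0.211). Under that fit, 53.7% of such sites would reach the floor and be listed, so a count of listed sites is below the number of sites under it. For Ptprc alone the fit gave 0.162 (0.112 to 0.209, 10 SNVs), under which 18.7% of such sites would be listed. Sites on shared reads are not independent and 1 common fraction is an assumption, so these intervals may be too narrow. The fit places the floor on the SpeedSeq reads alone. Each site also had to pass the VarScan2 floor and the quality limit, which the fit leaves out. The fitted fractions and the shares listed under them may therefore be too high.

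**Figure D3:**
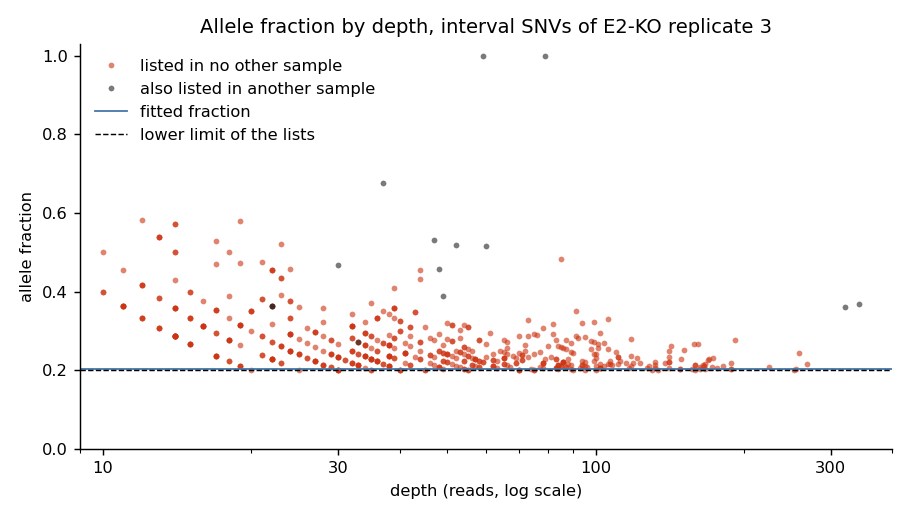
Allele fraction (vertical axis) against depth in reads on a log scale (horizontal axis) for the 565 confident SNVs of the interval in replicate 3. The 551 private SNVs (red) close in on the floor at 0.20 (dashed) and the fitted 0.204 (blue) as depth rises, with a median of 0.216 at 100 reads or more; SNVs also listed in another sample are dark.

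In the rest of replicate 3 the private SNVs had another distribution. At a depth of at least 30, the 385 private SNVs of the interval had a median of 0.231 and 88.8% were under 0.30, whereas the 4233 private SNVs elsewhere had a median of 0.397 and 13.3% were under 0.30. Cut into bins of 4 Mb, replicate 3 had 32 bins with at least 10 private SNVs. All 8 of these that lie in the interval had a median under 0.30, and none of the 24 elsewhere did (lowest median 0.334). Over all SNVs, private or not, replicate 3 had 11 bins of at least 10 SNVs with a median under 0.30, 8 of them in the interval and 3 elsewhere. Among bins with at least 10 private SNVs, 1 of 35 was under 0.30 in replicate 1, 3 of 15 in replicate 2 and 1 of 3 in replicate 4. Over all SNVs, the low bins were 2 of 210, 2 of 198 and 2 of 173 in replicates 1, 2 and 4. None of these lay in the interval, where no bin of these samples reached 10 SNVs. The limit of 0.30 was chosen after these values were seen. On chromosome 9 from 20 to 120 Mb, another stretch rich in private SNVs of replicate 3, the same fit gave 0.371 (0.369 to 0.373, 2886 SNVs), a description of the sites of 1 sample. In the Slam, Fcgr and Ifi200 region further along chromosome 1, low fractions were found in other samples: the private SNVs there gave a fit of 0.266 in replicate 1 (45 SNVs, 68.9% under 0.30) and 0.232 in replicate 2 (54 SNVs, 85.2% under 0.30). Replicate 3 had 10 SNVs in that region, none of them private. Low fractions of private SNVs were thus not particular to the Ptprc interval. In that region, though, private SNVs were 105 of 2262 in replicate 1 and 148 of 2392 in replicate 2. The medians over all SNVs there were 0.48 and 0.459. In the Ptprc interval, 551 of the 565 SNVs of replicate 3 were private. The fit of 0.266 in replicate 1 lay above the median of the same 45 SNVs, 0.242, so 1 common fraction describes them poorly. The fitted 0.204 stands beside the median of 0.80 of the SNVs at 0.65 or more elsewhere in replicate 3; whether the 2 values share a source was not tested.

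**Figure D4:**
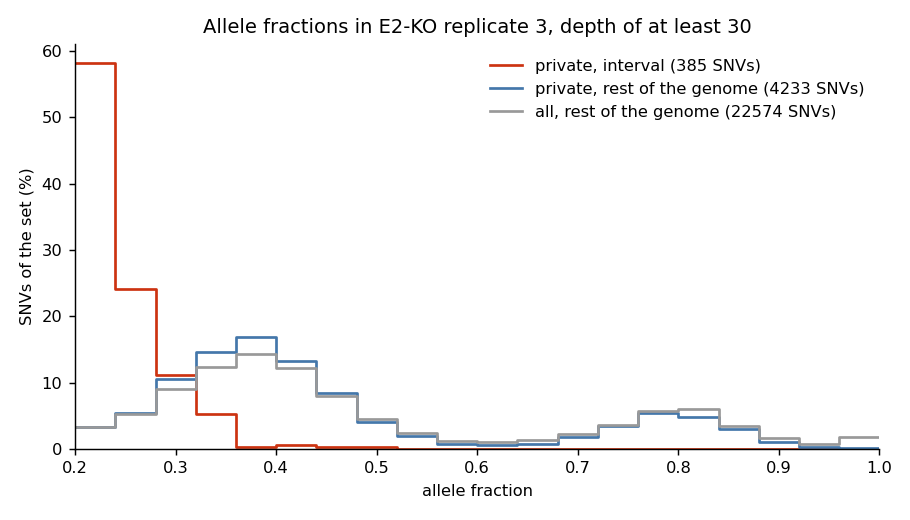
Share of SNVs in percent (vertical axis) by allele fraction in steps of 0.04 (horizontal axis) in replicate 3, for sites with a depth of at least 30: private SNVs of the interval, private SNVs in the rest of the genome, and all SNVs in the rest of the genome. The interval has a single group against the floor (median 0.231), whereas the private SNVs of the rest centre near their median of 0.397 with a further group near 0.8.

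The private SNVs formed a run, with ends that the calls place only roughly. The files list variants alone, so a stretch without calls cannot be told from one that was not read. The first lay at 106739225 (4 of 10 reads, fraction 0.40) and the last at 149840835 (0.220 at 50 reads), 43.1 Mb apart. On the near side, no sample had a confident SNV in the 10 Mb before the interval, and the nearest private SNV of replicate 3 lay 17.8 Mb before the interval. On the far side, replicate 3 had 6 confident SNVs in the 10 Mb after the interval, against 4, 4 and 5 in replicates 1, 2 and 4, none of them private, and its next private SNV lay 35.3 Mb after the interval. Within the run the longest gap was 6.96 Mb, from 121561468 to 128520810. The bins from 122 to 128 Mb that make up most of this gap hold 1, 6 and 8 protein-coding genes. At the depth limit, the 16 SNVs of replicate 3 with 10 to 12 reads had a median fraction of 0.382. Both callers listed 8 further SNVs of replicate 3 that missed a limit of depth, reads or quality, with a median fraction of 0.305.

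SNVs were unevenly spread along the interval. From 134 to 136 Mb, where 37 protein-coding genes lie, replicate 3 had 172 SNVs. It had 88 from 132 to 134 Mb (29 genes), 55 from 130 to 132 Mb (31 genes), 51 from 136 to 138 Mb (13 genes) and 32 from 138 to 140 Mb (14 genes), where Ptprc lies. Other bins went the other way: from 106 to 108 Mb, 17 genes came with 6 SNVs, from 110 to 112 Mb, 3 genes came with 27 SNVs, and from 112 to 114 Mb, 26 SNVs lay where no protein-coding gene does. Along the run, 8 bins of 4 Mb held at least 10 private SNVs of a depth of 30 or more. Their fitted fractions ran from 0.160 to 0.267, and 6 of them lay between 0.195 and 0.231. The exceptions were 0.267 from 112 to 116 Mb (0.232 to 0.302, 17 SNVs) and 0.160 from 144 to 148 Mb (0.108 to 0.209, 10 SNVs).

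**Figure D5:**
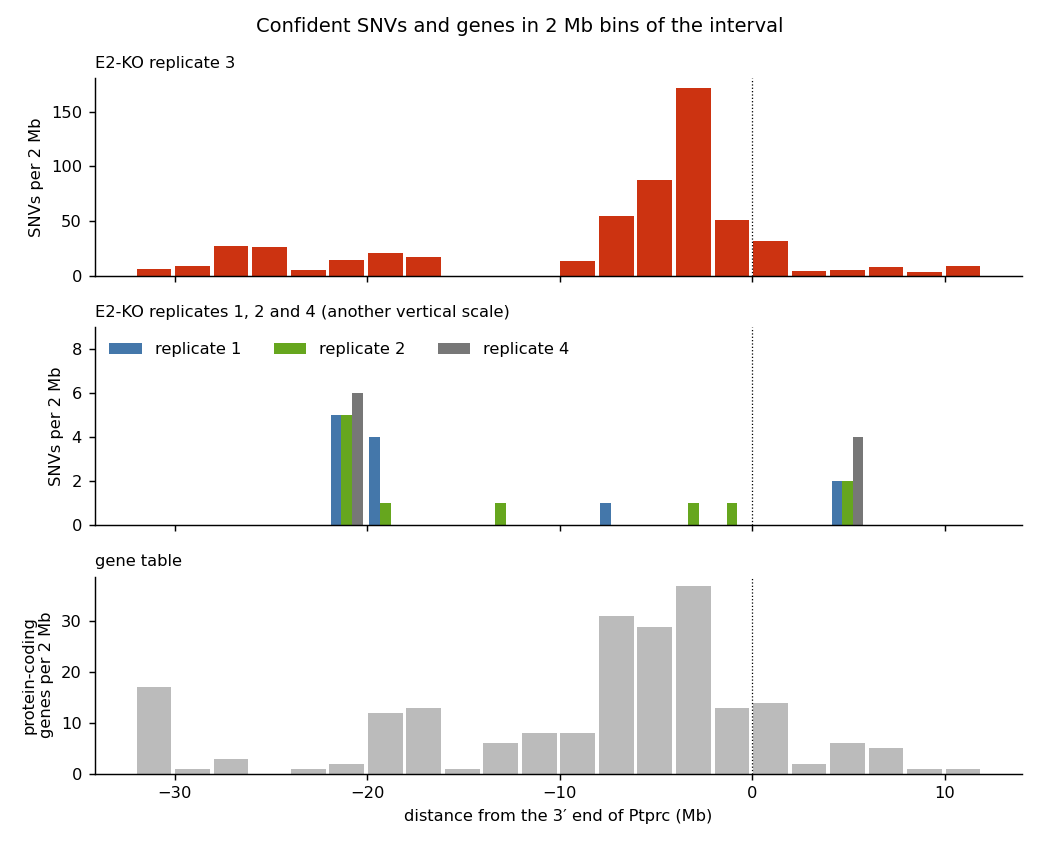
Confident SNVs per 2 Mb in replicate 3 (top), in replicates 1, 2 and 4 (middle, another vertical scale) and protein-coding genes per 2 Mb (bottom), against the distance from the 3′ end of Ptprc in Mb. Replicate 3 peaks at 172 SNVs in the bin with 37 genes, and no bin of the other samples holds more than 6.

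The gene table lists 202 protein-coding genes that overlap the interval. In replicate 3, 106 of them (52.5%) held at least 1 confident variant, beside 14.6% of the 21900 protein-coding genes of the whole genome in that sample. In replicate 1 the count was 16 (7.92%, beside 14.8% genome-wide), in replicate 2 it was 14 (6.93%, beside 14.6%) and in replicate 4 it was 8 (3.96%, beside 10.8%). Since the interval was chosen for its calls, nothing is read from these shares. Replicate 3 alone accounted for 89 of the genes, 1 gene was hit in all 4 samples, and 83 were hit in none. Of the 103 genes with an SNV in replicate 3, 87 had a median fraction under 30% and 5 had one of 40% or more. Counts per gene follow the captured length, which is not given in the sources used here, so they do not rank genes by rate.

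The 10 protein-coding genes with the most variant sites held 159 of the 627. In each of them the median fraction in replicate 3 lay between 21.7% and 27.6%. Nav1, a neuron navigator that binds microtubules, had 23 SNVs and 3 indels in replicate 3 (median 23.1% over SNVs). Tnnt2, the cardiac troponin T, had 17 SNVs (27.6%). Of the kinesin motors, Kif14 had 15 SNVs (21.7%) and Kif21b had 12 (22.8%). Ren1 had 15 SNVs in 9647 bases (25.6%, range 20% to 34.2%); some inbred strains carry a second renin gene, whose reads were not told apart from these. Sox13, a transcription factor of the SOX family, had 13 (24.2%), the cadherin gene Cdh7 had 14 (23.6%), Thsd7b had 13 (22.9%), and Cacna1s, the pore subunit of the skeletal muscle calcium channel, had 11 (26.7%). The other samples had 3 variants in these 10 genes, all of them indels: in Nav1 (replicate 2), Kif14 and Ptprc (replicate 1).

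A list of leucocyte and haematopoietic genes, not all of them particular to blood cells, had 19 members in the interval. Of these, 11 held a variant in replicate 3, beside 52.5% of all 202 genes of the interval, with 53 SNVs at a median of 23.2%. Besides Ptprc these were the chemokine receptor gene Cxcr4 with 2 SNVs (20.7% and 23.8%), the IgM receptor gene Fcmr with 2 (20% and 22.9%) and its neighbour Fcamr, which encodes an Fc receptor for IgA and IgM, with 8 (median 26.6%). Ptpn7, a tyrosine phosphatase of blood cells, had 6 (21%), Dennd1b, an exchange factor for Rab GTPases, had 6 (25.8%), and Mapkapk2, a kinase below p38, had 5 (29.2%). The chitinase-like gene Chil1 had 5 (24.4%), Elf3 3 (24.4%), Cd55 2 (28.9%) and the kinase gene Ikbke 1 (23.2%). Bcl2, Btg2, Il10, Marco, Nek7, Pigr, Rassf5 and Zbtb41 had no confident variant in replicate 3. In replicates 1, 2 and 4, 2 genes of the list were hit each, by 1 indel a gene. Of all 202 genes of the interval, 7.92%, 6.93% and 3.96% were hit in these samples. The list members were Ptprc and Cxcr4 in replicate 1 and Cxcr4 and Mapkapk2 in replicate 2. In replicate 4 they were the survival gene Bcl2 (7 of 19 reads, 36.8%) and Il10 (8 of 26, 30.8%). The indels in Cxcr4 lay at different positions, with 5 of 20 reads in replicate 1 (25%) and 4 of 11 in replicate 2 (36.4%).

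Of 6 listed tyrosine phosphatases, 3 were among the protein-coding genes of the interval. All 3 were hit in replicate 3, beside the same 52.5% of all genes there. They were Ptprc, Ptpn7 and Ptpn4, the last with 1 SNV at 21.3%. Ptprv, also listed, was not among the protein-coding genes of the interval and was not counted. Private SNVs of replicate 3 from 135109764 to 135126260, between Lgr6 and Ptpn7, lay outside protein-coding genes and count for no gene. Among genes of complement control, C4bp, a cofactor that inactivates complement, had 1 SNV in replicate 3 (16 of 39 reads, 41.0%), and Cd55b had 1 (23.7%) and 1 indel. The genes Cfhr2 (4 SNVs, 22.5%) and Cfhr3 (3 SNVs, 27.0%) have close copies, the lowest mapping quality among their SNVs was 41.0 and 42.9, and their calls are uncertain. None of the 4 genes of the interleukin 10 family held a variant in replicate 3. Of 5 RGS genes, which shorten G-protein signals, Rgs2 had 1 SNV (28.6%) and 2 indels and Rgs18 had 1 SNV (21.2%) and 1 indel, while Rgs1 had 1 indel in replicate 4 (10 of 10 reads). Of 12 clade B serpins, Serpinb2 (21.1% and 26.1%), Serpinb8 (23.1% and 23.3%) and Serpinb10 (24.5%) were hit in replicate 3 and none in the other samples.

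Of 16 genes of chromatin, transcription and tumour suppression, 8 were hit in replicate 3, near the 52.5% of all genes of the interval, with 32 SNVs at a median of 24.4%. Kdm5b, a demethylase of histone H3 lysine 4, had 10 SNVs (median 21.4%, 20% to 28.1%), Lgr6, an R-spondin receptor, had 9 (29.6%), the ubiquitin-conjugating enzyme gene Ube2t had 4 (24.1%) and the Hedgehog effector Gli2 had 3 (22.9%). Aspm, of the mitotic spindle, had 1 (22.3%), and the nuclear receptor gene Nr5a2 had 1 (24.7%). Pik3c2b, a class II phosphoinositide kinase, was the gene hit in all 4 samples, through 1 shared one-base deletion at 133101463 with fractions of 88.9%, 100%, 84.2% and 93.8% in replicates 1 to 4, and it had 2 further SNVs in replicate 3 (24.4% and 25%). Cdc73, a subunit of the PAF transcription complex, had 2 SNVs in replicates 3 (36.8% and 36.1%) and 4 (32.3% and 31.8%), with mapping qualities of 22.3 to 25.8 and depths of 299 to 342, and these calls, singled out after their values were seen, are uncertain.

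Few SNVs were shared between samples. Of the 7 SNVs found in all 4 samples, 5 lay within 117561102 to 117561192, outside protein-coding genes, at 22.0% to 53.2% of reads and with mapping qualities of 26.4 to 37.3. The other 2 lay at 142125135 and 142125179, also outside protein-coding genes, at 98.6% to 100% in every sample, replicate 3 included, and so did a one-base insertion at 142125294 (97.2%, 97.5%, 98.2% and 100%). In the interval, 92.7% of the SNVs of replicate 3 had a mapping quality of at least 50, against 8.33%, 27.3% and 0% in replicates 1, 2 and 4. In the rest of the genome these shares were 84.7% in replicate 3 and 78.8%, 81.4% and 79.0% in replicates 1, 2 and 4.

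Which base replaced which was not used to choose the interval, so the share of transitions was compared with the rest of the genome. Transitions made up 74.7% of the SNVs of the interval in replicate 3 (422 of 565, exact 95% interval 70.9 to 78.2), against 70.6% in the rest of its genome. In replicates 1, 2 and 4 they were 8 of 12, 5 of 11 and 4 of 10 in the interval, against 68.9%, 69.4% and 69.0% in the rest. The difference, interval minus rest, averaged -12.8 percentage points ± 16.2 (SD, n = 4) and was positive in 1 of 4 samples (two-sided exact sign-flip permutation test, p = 0.375, adjusted p = 0.375 over 2 tests, the other being that of the indel share below, which is not used). With 4 samples the smallest p this test can give is 1 in 8, so the difference could not pass 0.05. The labels do not say whether the samples came from separate animals, so this p-value measures only the spread between the samples. The samples also share sites: 7 SNVs of the interval were found in all 4. These 7 were most of the SNVs of replicates 1, 2 and 4 there. The differences of these samples are therefore not independent, as the test takes them to be. The share of indels depends on the number of SNVs, for which the interval was chosen, and is given as a description. Indels made up 5.20% of the confident variants of the interval in replicate 3 (31 of 596, 3.56 to 7.30), against 10.3% in the rest of its genome. In replicates 1, 2 and 4 they made up 55.6%, 54.2% and 50% of 27, 24 and 20 variants in the interval, against 9.36%, 10.4% and 11.7% in the rest. That difference averaged 30.8 points ± 24.2 (SD, n = 4) and was positive in 3 of 4 samples.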

How the data were processed

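Exome DNA of 4 samples of 1 group was analysed from 3 deposited files a sample. Per the file headers, the authors called variants with freeBayes 0.9.21 on UCSC mm10, 1 sample at a time; the deposited quality is a Phred-scaled score, beside whole-read depths and variant reads. The other deposited files are VarScan2 tables with reads per allele and other fields per call, per the file headers. The aligner, the handling of duplicates and the VarScan2 version: none is given in the sources used here. Bases shared by both alleles were trimmed so that calls could be matched (indels were not realigned), multi-base substitutions of equal length were read as single SNVs, and VarScan2 depth is its coverage column. Genes came from RefSeq GRCm38.p6 as gene bodies, without exons. The genes named are Ptprc and the 10 protein-coding genes with the most variant sites. Those of 7 gene lists are named where they hold a variant found in all 4 samples or in 1 only. Other genes (Golt1a, Mir6903, Cdc73, Mybph, Ptprv and list members without a variant) were named after their values were seen. 1 gene of the complement list, and with it that list's count, is not reported here. The bounds of the interval, the lists and tests were chosen with earlier results of these data known. The fit of a fraction cut off at 0.20 was tested on simulated data, with more sites than Ptprc alone has and without a second caller or quality limit. Python 3.11.15, pandas 2.3.3 and scipy 1.17.1 were used. Median depth at the SNVs of the interval was 42 reads in replicate 3 and 59, 45 and 62.5 in replicates 1, 2 and 4. Alternatives were each caller alone, stricter depth, fraction and quality limits, removal of close calls, and leaving out each sample.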

Additional observations from a re-analysis of the deposited data

Results flagged for a closer look

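Of 12 quantities of the interval compared over the 4 samples, 4 had replicate 3 far from the other 3 by Dixon's ratio: the number of confident SNVs (565, against 12, 11 and 10 in replicates 1, 2 and 4), the number of private SNVs (551, against 1, 1 and 0), the confident SNVs in Ptprc (13, against 0 in each) and the indel share of confident variants (5.20%, against 55.6%, 54.2% and 50%). The ratio is a description here: the interval was chosen for these counts, the indel share follows from them, and the usual chance rate of about 1 in 20 does not apply. The cause of the difference was not tested.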

How the results depend on the processing

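Of 60 values under the alternatives, 56 kept their direction or, for counts and the fraction, stayed within 1.5 times the main count or 1 SD of the main fraction. Raising the fraction limit to 0.20 changed no count, since the lists already stop there. The difference in transition share ranged from -22.1 percentage points with SpeedSeq alone to -7.36 without replicate 4, negative throughout; no setting could give a p under 0.05 with 3 or 4 samples, so p says nothing on stability here. The mean number of confident SNVs ranged from 11 to 196 and that of SNVs in Ptprc from 0 to 4.33 when 1 sample was left out, the lowest being without replicate 3 in both cases, since replicate 3 holds nearly all of them. The mean number of indels, 17.3 in the main setting, was 39.3 with VarScan2 alone and 10 with a SpeedSeq quality of at least 100; the cause was not tested. For replicate 3 itself the SNVs numbered 628 with SpeedSeq alone, 699 with VarScan2 alone and 389 with a quality of at least 100, and their median fraction stayed between 0.237 and 0.25 in the 6 settings that kept all samples. No paired analysis was possible because the samples form 1 group. Variants under an allele fraction of 0.20 could not be described, since the deposited lists hold next to none, and fractions at sites under 30 reads are imprecise.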

Other observations

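Among the SNVs of replicate 3 in the interval, 43 were at a fraction of 0.40 or more, of which 35 were private and 31 of these had fewer than 30 reads. The exception with the most reads was a private SNV in Mybph, a myosin-binding protein gene, at 48.2% of 85 reads. A group of 8 private SNVs between 130252808 and 130252928, outside protein-coding genes, had fractions of 40% to 52.9% at depths of 10 to 24 and mapping qualities of 45.7 to 60. These were singled out after their values were seen.

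By type of change, read on either strand, T-to-C changes made up 40% of the 565 SNVs of replicate 3 in the interval (exact 95% interval 35.9 to 44.2), against 34.9% in the rest of its genome, and C-to-T changes 34.7% (30.8 to 38.8), against 35.7%. C-to-A changes made up 4.78% (3.17 to 6.88), against 7.87%. Neighbouring SNVs are not independent, so these intervals are too narrow, and no difference was tested.

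Indels of replicate 3 in the interval numbered 31 (12 insertions and 19 deletions, 24 of 1 base), with a median fraction of 30%; 23 of them were private, with a median of 28.6%. Replicates 1, 2 and 4 had 15, 13 and 10 indels, of which 5, 5 and 1 were private.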
